A study of Homo sapiens with 121 samples.

Results

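The genes of the telomerase enzyme, of the dyskerin complex that stabilizes its RNA and of the factors that assemble it were followed through 121 single human embryonic stem cells (hESCs). The 10 genes were chosen by name (TERT, DKC1, NOP10, NHP2, GAR1, NAF1, WRAP53, PTGES3, SSB and HAT1) and make up 10 of the 25610 genes read. All cells came from the hESC line WA26, an established line, grown undifferentiated in E8 medium on Matrigel, and no cell was treated. The assay, scT&R-seq, splits each cell into its mRNA, which is turned into a transcriptome by a Smart-seq2 protocol, and its genomic DNA, in which telomere length is measured by qPCR. The labels sort the cells by that length into 81 Long, 25 Medium and 15 Short cells. Each library is 1 cell and neither a culture nor a batch is named, so each telomere group counts as 1 sample. Values below are means ± SD across cells, with no p-value, and describe these cells.

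Telomerase is a reverse transcriptase, TERT, working on an RNA template, TERC. The 3′ part of TERC folds like an H/ACA small nucleolar RNA and is bound by the same proteins as those RNAs: dyskerin (DKC1), a pseudouridine synthase, with NOP10 and NHP2, and GAR1, which joins last and takes the place of the assembly factor NAF1. WRAP53 (also called TCAB1) brings the particle to Cajal bodies and telomeres, PTGES3 (p23) is a co-chaperone of HSP90, SSB (La) binds the 3′ ends of newly made small RNAs, and HAT1 acetylates newly made histone H4. Pluripotent stem cells have active telomerase, while most differentiated cells have silenced TERT, and the dyskerin complex is also needed by every cell for ribosomal RNA modification.

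The bases upstream of the 4 dyskerin complex genes are shown because these genes encode 1 particle. A further reason is that the levels of DKC1, NOP10 and GAR1 varied together in part of the cells. Each line gives the 250 bases before the annotated start, 5′ to 3′ on the strand of the gene, from the RefSeq table for GRCh38.p14 (a different build from that of the expression files). Capitals mark every match, on either strand, to CACGTG (the E-box bound by MYC), GGGCGG (GC box), CCGGAAG (an ETS site), GCGCA followed directly by its reverse complement TGCGC (NRF1) or CCAAT, and adjoining matches run together.
DKC1 (chrX:154762614-154762863, + strand): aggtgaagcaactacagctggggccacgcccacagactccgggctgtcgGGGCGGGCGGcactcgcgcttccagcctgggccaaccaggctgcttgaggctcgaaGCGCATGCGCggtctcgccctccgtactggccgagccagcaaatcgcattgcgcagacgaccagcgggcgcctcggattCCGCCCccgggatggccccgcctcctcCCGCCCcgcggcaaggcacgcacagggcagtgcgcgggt
NOP10 (chr15:34343137-34343386, - strand): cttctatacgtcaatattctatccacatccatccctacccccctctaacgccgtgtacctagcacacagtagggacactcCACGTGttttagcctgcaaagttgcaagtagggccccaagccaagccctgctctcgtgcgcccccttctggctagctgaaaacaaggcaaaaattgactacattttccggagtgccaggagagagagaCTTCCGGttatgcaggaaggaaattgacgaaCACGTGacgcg
NHP2 (chr5:178153886-178154135, - strand): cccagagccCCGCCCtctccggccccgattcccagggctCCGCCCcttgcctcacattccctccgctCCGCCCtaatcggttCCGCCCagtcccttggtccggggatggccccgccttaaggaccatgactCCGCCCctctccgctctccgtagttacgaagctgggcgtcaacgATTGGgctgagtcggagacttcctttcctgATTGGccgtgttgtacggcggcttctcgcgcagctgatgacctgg
GAR1 (chr4:109815260-109815509, + strand): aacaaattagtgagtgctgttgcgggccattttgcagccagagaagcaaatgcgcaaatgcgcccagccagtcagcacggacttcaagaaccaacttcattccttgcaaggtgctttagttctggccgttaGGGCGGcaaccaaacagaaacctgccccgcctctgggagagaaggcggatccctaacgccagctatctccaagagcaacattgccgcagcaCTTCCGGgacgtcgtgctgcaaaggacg
The E-box letters were present at 2 places in the NOP10 window and in none of the other 3 windows, and 6.34% of 35116 promoter windows of this length hold them. The NRF1 letters were found in the DKC1 window only, against 1.03% of all windows. The ETS letters occurred in NOP10 and GAR1 (8.52% of all windows), GC boxes in DKC1, NHP2 and GAR1 (42.6%), and CCAAT in NHP2 alone (32.0%), so no motif searched was shared by all 4 genes. Of the 10 genes, 9 had an entry in the promoter table, and GAR1 had a second entry whose window held CCAAT and no other letters searched. A match describes these letters and is not a bound site.

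TPM values, which are scaled by gene length and to a like total in each cell, were put on a scale of log2(TPM + 1), and a gene was called detected above TPM 1. Detected genes numbered 8296 ± 2152 in Long, 7980 ± 2070 in Medium and 5784 ± 2355 in Short cells. Because this number differs so much between the groups, every comparison was repeated on both sides of a border of 8000 detected genes, in the 68 cells above it (gene-rich cells: 51 Long, 14 Medium and 3 Short) and in the other 53 (gene-poor cells: 30 Long, 11 Medium and 12 Short). The number of reads per cell is unknown from TPM. All 9 hESC markers checked (among them POU5F1, NANOG and SOX2) were detected in over 50% of Long and of Medium cells and 8 of 9 in over 50% of Short cells, with a summed TPM of 1430 to 4679 in Long and 725 to 3517 in Short cells. Of 12 early differentiation markers none was detected in over 50% of the cells of a group, and their summed TPM ranged from 0 to 56.5 in Long, 0 to 114 in Medium and 0 to 112 in Short cells; GATA6 and HAND1 were listed at 0 in every cell. Of 6 fibroblast markers, 1 was detected in over 50% of Long and of Medium cells and none in Short cells, with sums of 0 to 162, 0 to 56.4 and 0 to 195 TPM, and LUM was listed at 0 in every cell. The part of these markers in the results below was not tested.

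TERT, the catalytic subunit (GRCh37 chr5:1253262-1295183, minus strand), was read at TPM 0 in most cells. It was above 0 in 33 of 121 cells and above TPM 1 in 14. Those 14 were 9 of 81 Long cells (11.1%, exact 95% interval 5.21 to 20.0), 4 of 25 Medium cells (16%) and 1 of 15 Short cells (6.67%, interval 0.169 to 31.9). The intervals cover counting error only and overlap between all groups. In Long cells TERT ran from TPM 0 through a median of 0 to 7.44, in Medium cells to 6.5, and the single positive Short cell, Short 9, held 24.83 TPM, the highest value of all cells, with only 3187 detected genes. The group means, 0.32 ± 0.68, 0.37 ± 0.70 and 0.31 ± 1.21 on the log2 scale, therefore lay within 1 SD of each other, and the Short mean rests on that 1 cell. Cells above 0 were mostly gene-rich, 30 of the 33, and 12 of the 14 cells above TPM 1 were gene-rich. In the 3 gene-rich Short cells TERT was listed at 0, and 3 cells are too few to set a limit on a share.

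TERC, the RNA template (chr3:169482308-169482848, minus strand), was above 0 in 10 cells, 8 Long and 2 Medium, at 1.07 to 90.37 TPM. It was at 0 in all 15 Short cells, which by a floor of 3 counts allows a share of up to 20% of cells with a TERC reading and sets no limit on cells that express it. The libraries start from polyadenylated RNA, and mature TERC is not a typical polyadenylated transcript, so these values are no measure of its amount. TERT and TERC were both above 0 in 5 cells, all Long, TERT alone in 28, TERC alone in 5 and neither in 83. Cells with both above 0 were thus few.

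DKC1, NOP10 and NHP2, the members that form the first complex on the RNA, were read in nearly every cell. DKC1 (chrX:153991017-154005964, plus strand, host of SNORA36A and SNORA56) had a lowest, median and highest value of 0.43, 66.99 and 377.5 TPM in Long, 0, 60.6 and 264.68 in Medium and 0, 82.69 and 405.6 in Short cells. NOP10 (chr15:34631360-34635381, minus strand) had 5.13, 695.01 and 3518.94 TPM in Long, 360.06, 804.41 and 3775.06 in Medium and 6.08, 1015.96 and 6205.26 in Short cells. NHP2 (chr5:177576464-177580895, minus strand) had 17.04, 447.37 and 2679.18 TPM in Long, 190.24, 658.79 and 1932.33 in Medium and 7.54, 619.2 and 5541.1 in Short cells. The ranges of the 3 groups overlapped for each gene, and for all 3 the median was lowest in Long cells or, for DKC1, in Medium cells, and highest in Short or Medium cells. NOP10 and NHP2 were detected in all 121 cells and DKC1 in 118.

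**Figure D1:**
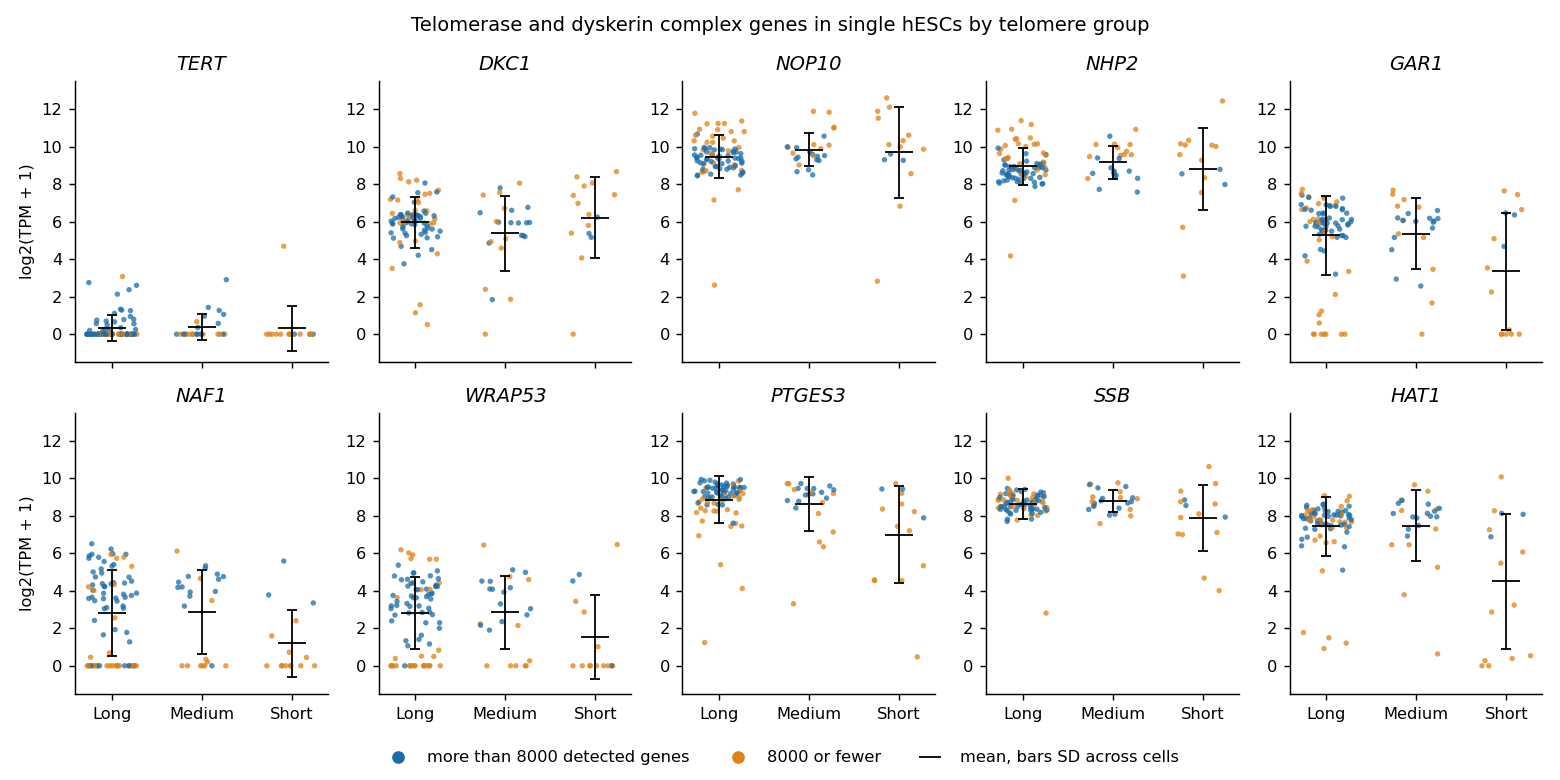
Level of each of the 10 genes in every cell, as log2(TPM + 1) on the vertical axis, by telomere group (81 Long, 25 Medium and 15 Short cells); blue points are cells with more than 8000 detected genes and orange points the rest, with the mean as a black line and the SD across cells as bars. Gene-rich cells lie close together for NOP10, NHP2, PTGES3, SSB and HAT1, and the points at or near 0 for GAR1 and HAT1 are gene-poor cells.

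On the log2 scale the Long mean minus the Short mean was -0.25 for DKC1, -0.22 for NOP10 and 0.15 for NHP2, each smaller than the SD across the cells of either group. DKC1 was higher in the Long cell of 42.0% of all Long-Short pairs, NOP10 in 36.8% and NHP2 in 46.4%. Over the 13439 genes that averaged TPM 1 or more, the median Long minus Short difference was 0.70, and 79.2% of genes were above 0. Over all cells the 3 genes thus sat low in that distribution, at percentiles 15.2, 15.8 and 25.5. Scaling by the median ratio over genes above 0 in every cell moved the median of all genes to 0.47 and gave -0.78 for DKC1, -0.99 for NOP10 and -0.62 for NHP2, so that NHP2 changed sign and the other 2 did not. In gene-rich cells the differences were 0.36, -0.09 and 0.21, against a median of 0.08 over all genes, and rest on 3 Short cells. Their percentiles there were 65.6, 40.2 and 57.3. In gene-poor cells the differences were -0.39, -0.02 and 0.57 (percentiles 19.8, 30.9 and 58.9). Each Short cell was also set against its 3 nearest Long cells by detected genes, a comparison added after the data had been seen. The differences were then -0.36, 0.40 and 1.03, at percentiles 23.1, 62.0 and 83.0.

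A few cells set the width of the Short group. Short 14 combined the highest DKC1 value, 405.6 TPM, with 6.08 TPM of NOP10 and 7.54 TPM of NHP2, and had 3481 detected genes and 2135 TPM of POU5F1. Short 6 had DKC1 at 0, NOP10 at 112.36 and NHP2 at 50.88 TPM with 6046 detected genes. Among Long cells, Long 4 was the only one with all 3 genes under 20 TPM (1.97, 5.13 and 17.04), with 1537 TPM of POU5F1 and 4366 detected genes. Each of these 3 cells had 7 of the 9 hESC markers above TPM 1. Leaving out Short 14 gave a Long minus Short difference of -0.08 for DKC1, -0.71 for NOP10 and -0.26 for NHP2, and leaving out Short 6 gave -0.70 for DKC1.

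GAR1, the fourth dyskerin complex protein (chr4:110736666-110745896, plus strand), behaved differently in the comparison of groups. Its lowest, median and highest values were 0, 59.9 and 210.69 TPM in Long, 0, 64.6 and 203.87 in Medium and 0, 10.62 and 198.86 in Short cells. It was detected in 90.1% of Long (81.5 to 95.6), 96% of Medium (79.6 to 99.9) and 60% of Short cells (32.3 to 83.7). The ranges overlapped, since Short cells fell into some with GAR1 at the level of Long cells and 6 at or under TPM 1. The Long minus Short difference was 1.91 (5.27 ± 2.12 against 3.36 ± 3.13), at percentile 86.8 of all genes, with the Long cell higher in 64.2% of pairs. In gene-rich cells it was 0.11, and all 68 gene-rich cells had GAR1 above TPM 1, including the 3 Short cells at 87.28, 81.21 and 24.66 TPM. In gene-poor cells it was 1.38 (73.3% of 30 Long and 50% of 12 Short cells detected). Number of detected genes and GAR1 level had a Pearson r of 0.51 over the 121 cells and of 0.00 over the 68 gene-rich cells. Over the 53 gene-poor cells it was 0.49, so that set does not hold the number of detected genes constant.

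**Figure D2:**
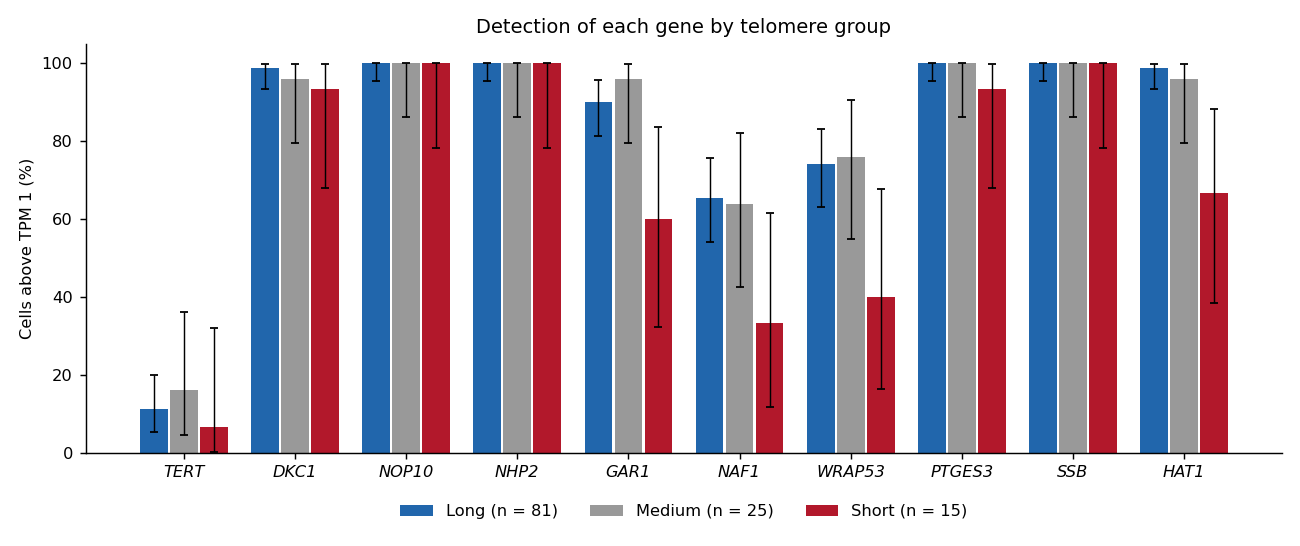
Percentage of cells with each gene above TPM 1 in Long (n = 81, blue), Medium (n = 25, grey) and Short cells (n = 15, red); bars start at 0 and error bars are exact 95% intervals covering counting error only. GAR1, NAF1, WRAP53 and HAT1 were detected in 60%, 33.3%, 40% and 66.7% of Short cells against 90.1%, 65.4%, 74.1% and 98.8% of Long cells, while NOP10, NHP2 and SSB were detected in every cell.

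All 4 dyskerin complex genes were detected together in 104 of 121 cells. That was every gene-rich cell and 36 of the 53 gene-poor cells, or 88.9% of Long, 92% of Medium and 60% of Short cells. In the gene-rich cells, compared per length, NOP10 and NHP2 were above DKC1 in every cell, and DKC1 and GAR1 had no order. NOP10 was above DKC1 in 68 of 68 cells with a median ratio of 10.4, NHP2 was above DKC1 in 68 of 68 with a median ratio of 6.65, and GAR1 was above DKC1 in 33 of 68 with a median ratio of 0.97. The median NOP10 to DKC1 ratio of gene-rich cells was 9.70 in Long, 12.3 in Medium and 17.7 in the 3 Short cells, whose log2 ratios overlapped those of Long cells (3.36 ± 0.72 in Long, 3.80 ± 0.64 in Short).

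NAF1, which holds GAR1's place during assembly (chr4:164031225-164088042, minus strand), was read at lower levels than GAR1. Its lowest, median and highest values were 0, 10.94 and 89.87 TPM in Long, 0, 14.23 and 68.32 in Medium and 0, 0 and 47.03 in Short cells. The Long minus Short difference was 1.63 over all cells and -0.52 in gene-rich cells, where the Short cells held 47.03, 9.2 and 12.74 TPM, inside the range of Long cells. In gene-poor cells it was 0.87, with 26.7% of Long and 16.7% of Short cells detected. GAR1 and NAF1 were detected together in 73 cells, GAR1 alone in 33, NAF1 alone in 1 and neither in 14. In the 61 gene-rich cells with both, GAR1 was higher in 53, with a median ratio of 3.05, and their levels over the 68 gene-rich cells had r = 0.05.

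WRAP53, the Cajal body and telomere targeting factor (chr17:7589389-7606820, plus strand), had 0, 8.32 and 71.89 TPM as lowest, median and highest value in Long, 0, 7.24 and 85.79 in Medium and 0, 0 and 87.43 in Short cells. It was detected in 74.1%, 76% and 40% of cells, and the Long minus Short difference was 1.28 over all cells, 0.30 in gene-rich and 0.64 in gene-poor cells. The highest Short value, 87.43 TPM in Short 11, was above every Long and Medium cell.

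PTGES3 (chr12:57057125-57082192, minus strand) and HAT1 (chr2:172778958-172848600, plus strand) had the clearest gaps among genes detected in nearly all Long cells. PTGES3 had 1.36, 589.15 and 979.29 TPM in Long, 8.89, 574.71 and 841.78 in Medium and 0.39, 236.03 and 842.33 in Short cells, and the Long cell was higher in 75.8% of Long-Short pairs. HAT1 had 0.89, 226.19 and 537.13 TPM in Long, 0.55, 250.07 and 803.39 in Medium and 0, 43.38 and 1075.57 in Short cells, with the Long cell higher in 74.2% of pairs. The groups overlapped at both ends, since Short 14 had the highest HAT1 level of all cells while 5 Short cells lay at or under TPM 1, a level that 1 of 81 Long and 1 of 25 Medium cells shared.

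The Long minus Short difference was 1.86 for PTGES3 (8.85 ± 1.26 against 7.00 ± 2.59) and 2.93 for HAT1 (7.44 ± 1.56 against 4.50 ± 3.62), at percentiles 85.5 and 98.4 of all genes. In gene-rich cells the differences were 0.41 and 0.08, and the 3 Short cells held 268.78, 278.65 and 116.71 TPM of HAT1, within the Long range of 33.28 to 392.66. In gene-poor cells they were 1.54 and 3.15. When each Short cell was set against its 3 nearest Long cells in number of detected genes, a comparison added after the data had been seen, they were 1.36 and 2.63, with Long cells on average 333 detected genes above their Short cells. The 5 Short cells without HAT1 had 2030, 2577, 3187, 5392 and 6407 detected genes and NOP10 levels of 1016 to 6205 TPM, so NOP10 was read at high level in each of them. PTGES3 has 5 named pseudogenes in the annotation and HAT1 overlaps SLC25A12 on the other strand, which leaves part of their reads uncertain.

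SSB, the La protein (chr2:170648443-170668574, plus strand), was detected in all 121 cells and varied least of the 10 genes over all cells, TERT apart (SD 0.95). It had 6.02, 412.55 and 1025.19 TPM in Long, 190.81, 432.51 and 862.6 in Medium and 15.13, 272.98 and 1575.17 in Short cells. The Long minus Short difference was 0.74 (8.62 ± 0.78 against 7.88 ± 1.75), close to the median of all genes and at percentile 51.5, and it was 0.21 in gene-rich cells. Under median ratio scaling it was -0.02. It was 0.82 in gene-poor cells (percentile 68.3) and 0.90 against the 3 nearest Long cells (percentile 79.7).

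Of the 10 genes, 5 were at least 1 log2 unit (2-fold) higher in Long than in Short cells, namely GAR1, NAF1, WRAP53, PTGES3 and HAT1, and none was at least 1 lower. Of those 13439 genes, 38.9% were at least that much higher and 3.75% lower. Among genes averaging TPM 10 or more the share higher was 66.5%. The median over the 10 genes was 1.01 beside 0.70 over all genes. TERT, with a mean TPM of 0.63, is not among the 13439 and the other 9 are. In gene-rich cells 0 of 10 passed in either direction (11.4% of all genes higher, 9.37% lower), with a median of 0.21 beside 0.08, and in gene-poor cells 3 of 10 were higher (GAR1, PTGES3 and HAT1; 26.4% of all genes) and none lower (7.37%), with a median of 0.73 beside 0.37. Against the nearest Long cells 3 of 10 were higher (NHP2, PTGES3 and HAT1; 17.7% of all genes) and none lower (5.54%). The count over all cells was thus not far from the share of all genes, and none of the 5 genes that made it up was past 1 in gene-rich cells. Over the 121 cells the levels of these 5 had Pearson r of 0.49 to 0.61 with the number of detected genes, beside -0.02 for DKC1, -0.20 for NOP10, -0.28 for NHP2 and 0.06 for SSB. No such r over all genes is set beside them here. The part of the number of detected genes in the group differences was not tested, and the gene-rich values rest on 3 Short cells.

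**Figure D3:**
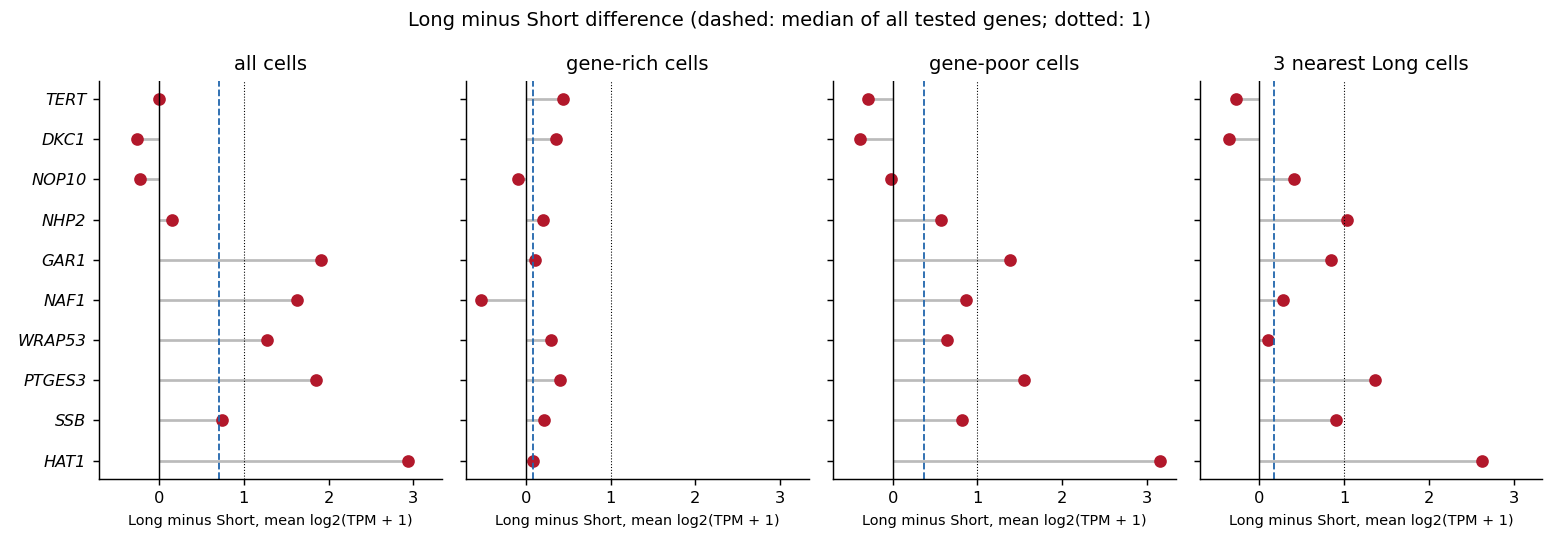
Long minus Short difference of mean log2(TPM + 1) for each gene, in all cells, in the 68 gene-rich cells, in the 53 gene-poor cells and against the 3 nearest Long cells; the dashed line is the median of the 13439 genes and the dotted line marks 1. HAT1 lay at 2.93, 0.08, 3.15 and 2.63 in the 4 panels, and no gene passed 1 in gene-rich cells.

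Over all cells the Long minus Medium differences of the 10 genes ran from -0.37 (NOP10) to 0.58 (DKC1), none reached 1 in size, and the Long minus Medium background was 0.893% of genes higher and 0.387% lower. Medium minus Short differences ran from -0.84 (DKC1) to 2.97 (HAT1), with the same 5 genes past 1 as in Long minus Short (33.8% of all genes higher, 4.11% lower). These comparisons share their cells, so their values are set side by side only. In gene-rich cells Medium minus Short was -0.37 for GAR1 and -0.15 for NAF1, and no member passed 1 in either direction (11.3% of all genes higher, 11.6% lower). Long minus Medium in gene-rich cells ran from -0.37 (NAF1) to 0.48 (GAR1), again with none past 1 (0.967% of all genes higher, 0.677% lower).

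In the gene-poor cells the Long and Medium means were at least 1 apart for 2 genes, DKC1 and GAR1. DKC1 was 1.02 higher in Long than in Medium cells (5.98 ± 2.03 against 4.96 ± 2.60), with 5.97% of all genes at least 1 higher. GAR1 was 1.12 higher in Medium cells, a Long minus Medium difference of -1.12 (4.12 ± 3.02 against 5.24 ± 2.52), with 5.2% of all genes at least 1 lower. Both differences were smaller than the SD across cells. Medium minus Short in gene-poor cells was -1.41 for DKC1 (7.95% of all genes lower), and 4 genes were at least 1 higher (26.1% of all genes): HAT1 (3.05), GAR1 (2.50), PTGES3 (1.43) and SSB (1.06).

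Compared per length in the 68 gene-rich cells, the order of mean log2(TPM + 1) was NOP10 (9.34 ± 0.48), PTGES3 (9.27 ± 0.44), SSB (8.67 ± 0.44), NHP2 (8.65 ± 0.51), HAT1 (7.82 ± 0.62), DKC1 (5.88 ± 0.92), GAR1 (5.84 ± 0.92), NAF1 (3.81 ± 1.70), WRAP53 (3.46 ± 1.22) and TERT (0.46 ± 0.73). NOP10 and PTGES3, SSB and NHP2, and DKC1 and GAR1 could not be put in order, since one was above the other in 50%, 51.5% and 51.5% of cells. NAF1 was above WRAP53 in 66.2% of cells. The other neighbours were in order in 86.8% to 97.1% of cells. Genes of like mean level (within 0.5) had a median SD of 1.27 beside the 1.70 of NAF1, with 86.4% of them below NAF1, while SSB varied less than most genes of its level, with 30.2% of them below it. In gene-poor cells the SD of each gene was larger than in gene-rich cells, from 1.34 for SSB to 3.03 for GAR1, TERT apart (0.77).

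The levels of DKC1, NOP10 and GAR1 varied together in gene-rich cells, with lower coefficients for NHP2. Pearson r over the 68 cells was 0.48 for DKC1 and GAR1, 0.47 for DKC1 and NOP10, 0.42 for NOP10 and GAR1, 0.34 for DKC1 and NHP2, 0.34 for NOP10 and NHP2 and 0.17 for NHP2 and GAR1. The median of the 6 was 0.38, and the median over all pairs of genes averaging TPM 10 or more was 0.02, with the middle 95% of pairs between -0.29 and 0.32. Among 6205 such genes, DKC1 ranked 14 in its r with GAR1 and 43 in its r with NOP10. In r with DKC1, GAR1 ranked 75 and NOP10 94. Without Long 7 and Medium 10 the coefficient of DKC1 was 0.31 with GAR1 and 0.40 with NOP10. That of NOP10 and GAR1 was 0.36. The 0.31 lay inside the middle 95% of GAR1's own coefficients over all 68 cells (-0.27 to 0.36). The 0.40 lay just above that of NOP10 (-0.38 to 0.39). In r with NHP2, DKC1 ranked 423, NOP10 455 and GAR1 1437, each inside the middle 95% of NHP2's own coefficients (-0.43 to 0.45). Spearman's rho had a median of 0.28, and the median r was 0.30 after median ratio scaling and 0.33 when the 2 most extreme cells by the mean of the 4 genes were left out, Long 7 (DKC1 266.05 and NOP10 1629.13 TPM) and Medium 10 (DKC1 2.59 and GAR1 6.67 TPM). All points share the TPM scaling of their cell, and the mean of the 4 genes had r = -0.19 with the number of detected genes.

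In gene-poor cells the median of the 6 coefficients was 0.15, and 0.054 (from -0.18 to 0.25) without Long 4 and Short 14. There NOP10 and NHP2 had r = 0.67 with a Spearman rho of 0.30, and r was 0.25 without Long 4 and Short 14, the 2 cells with both genes near the bottom. DKC1 and GAR1, at 0.48 in gene-rich cells, had r = -0.04 in gene-poor cells.

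**Figure D4:**
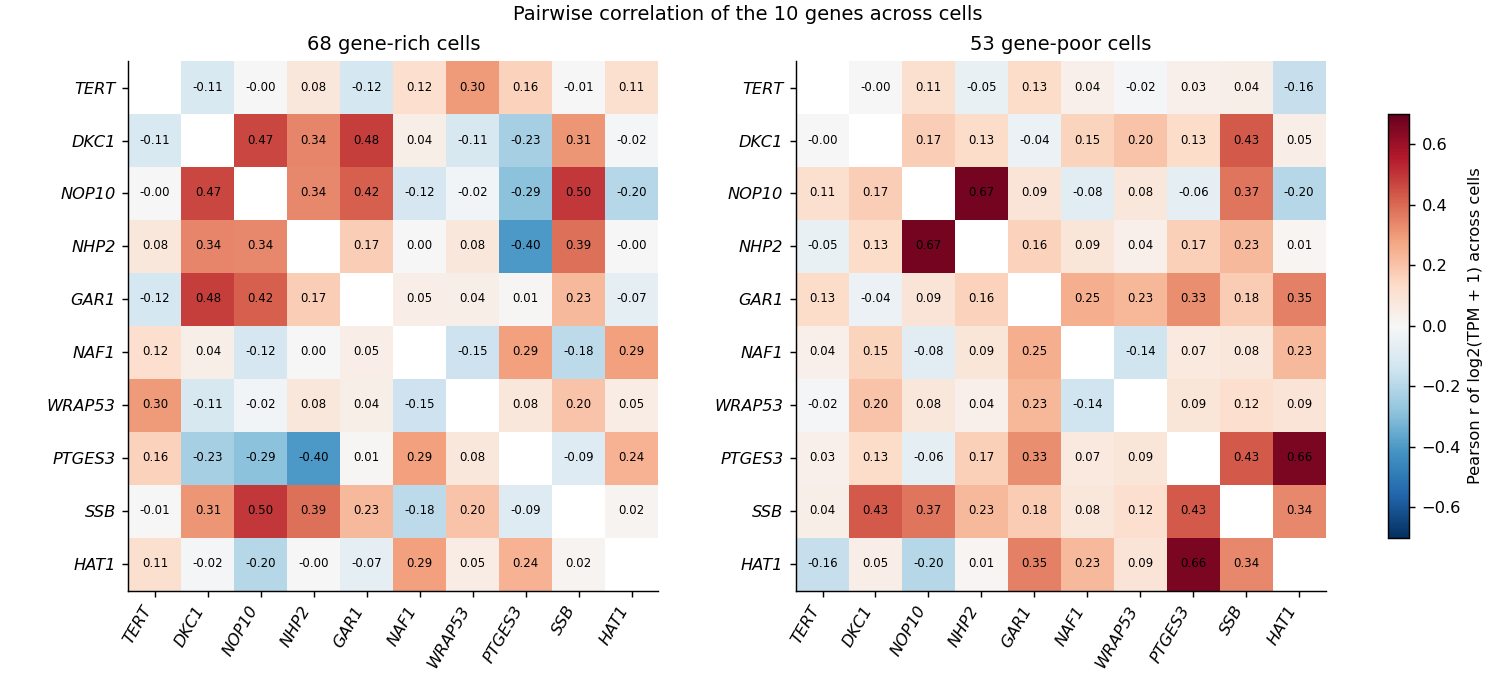
Pearson r of log2(TPM + 1) for each pair of the 10 genes across the 68 gene-rich cells (left) and the 53 gene-poor cells (right), printed in each square and coloured from blue (negative) to red (positive). The block of DKC1, NOP10, NHP2 and GAR1 holds values of 0.17 to 0.48 on the left, and PTGES3 with HAT1 stands at 0.66 on the right.

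SSB had r of 0.50 to NOP10, 0.39 to NHP2, 0.31 to DKC1 and 0.23 to GAR1 in gene-rich cells. The value to NOP10 lay above the middle range of NOP10's own coefficients (-0.38 to 0.39), the range used above for NHP2. Those to NHP2, DKC1 and GAR1 lay inside the ranges of these genes (upper ends 0.45, 0.43 and 0.36). PTGES3 had r of -0.40 to NHP2, -0.29 to NOP10 and -0.23 to DKC1, and 0.01 to GAR1. Each lay inside the partner gene's own range (lower ends -0.43, -0.38, -0.34 and -0.27). The value to NHP2 lay below PTGES3's own range (-0.35 to 0.44). Spearman's rho was -0.25 for NHP2, -0.25 for NOP10 and -0.11 for DKC1. In gene-poor cells r was 0.17, -0.06 and 0.13 for the same genes, and rho -0.24, -0.51 and 0.09. SSB, NHP2 and PTGES3 also moved with the number of detected genes within the gene-rich set (r = -0.45, -0.29 and 0.34). The part of that number in the gene-rich coefficients was not tested. PTGES3 and HAT1 had r = 0.66 and rho = 0.71 in gene-poor cells, beside 0.24 and 0.18 in gene-rich cells. NAF1 had r of 0.29 to PTGES3 and 0.29 to HAT1 in gene-rich cells and -0.18 to SSB.

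**Figure D5:**
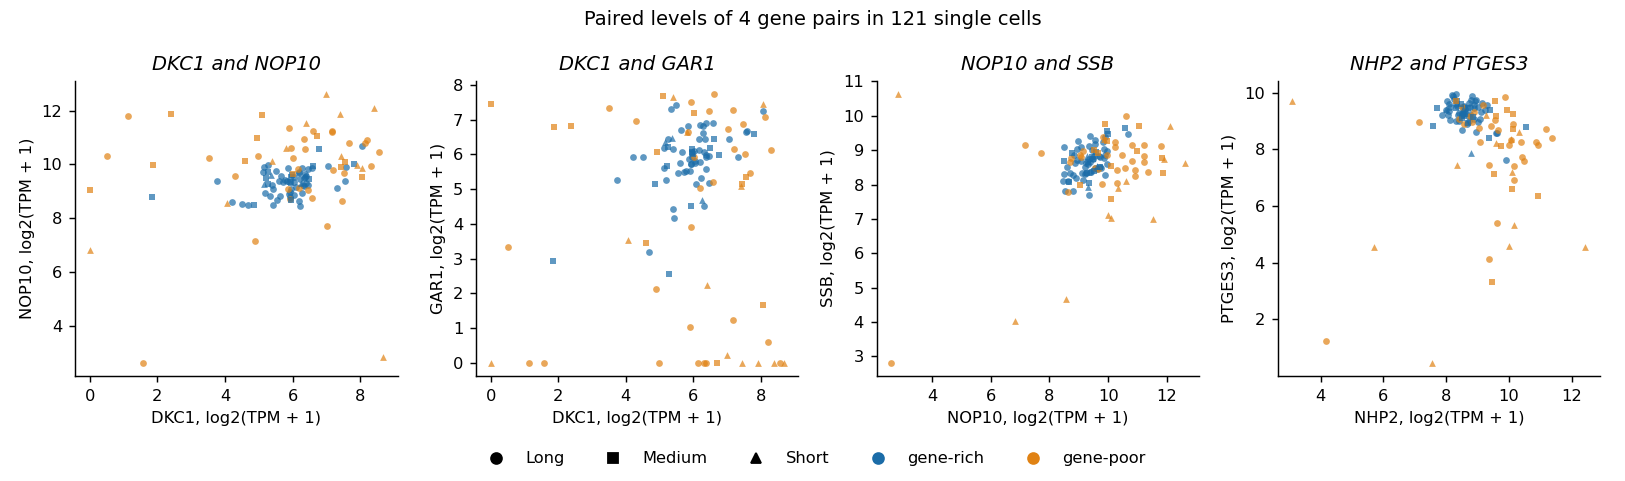
Levels of 4 gene pairs in the 121 cells as log2(TPM + 1) on both axes, with circles for Long, squares for Medium and triangles for Short cells, blue for gene-rich and orange for gene-poor cells. In gene-rich cells r was 0.47 for DKC1 and NOP10, 0.48 for DKC1 and GAR1, 0.50 for NOP10 and SSB and -0.40 for NHP2 and PTGES3, and the isolated points are gene-poor cells such as Short 14 and Long 4.

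TERT had its highest r among the other members with WRAP53 (0.30, rho 0.24, over 68 gene-rich cells), and r of -0.12 to 0.16 with the other 8. With TERT above 0 in 30 of these cells, coefficients of this size are no finding. The 5 genes with the highest r to TERT were RNF168 (0.39), CLPTM1L (0.37), AOAH-IT1 (0.36), UTP15 (0.35) and GATB (0.34). The middle 95% of the 6206 genes lay between -0.23 and 0.23, and the 5 highest lie above it by choice. In gene-poor cells r was -0.08 for RNF168, 0.22 for CLPTM1L, -0.03 for AOAH-IT1, -0.03 for UTP15 and -0.12 for GATB. CLPTM1L (chr5:1317867-1345214, minus strand) lies 22.7 kb from TERT in GRCh37, and the part of this distance in its r was not tested.

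The 5 genes most like the mean of DKC1, NOP10, NHP2 and GAR1 in gene-rich cells were GPATCH4 (r = 0.76, rho = 0.46), ABCF1 (0.74 and 0.61), EIF2S2 (0.69 and 0.51), C21orf59 (0.68 and 0.50) and RANBP1 (0.68 and 0.57), among 6202 genes. EIF2S2 is a subunit of translation initiation factor eIF2, ABCF1 an ATP-binding protein of translation, and RANBP1 a regulator of the nuclear transport GTPase RAN. In gene-poor cells the same 5 had r of 0.63 for ABCF1, 0.54 for EIF2S2, 0.40 for C21orf59, 0.39 for RANBP1 and 0.21 for GPATCH4. The 4 box C/D core genes had r of 0.53 (NOP58), 0.46 (NOP56), 0.28 (FBL) and 0.05 (NHP2L1) with this mean in gene-rich cells. SHQ1, the factor that holds newly made dyskerin, had r = -0.11.

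Other genes of the pathway were counted from lists that include every gene. Of 28 further telomerase biogenesis genes (chaperones, TERC processing enzymes, TERT partners), 16 were at least 1 higher in Long than in Short cells and none at least 1 lower, with a median of 1.09, beside the 38.9% of all genes and the 66.5% of genes averaging TPM 10 or more that were as much higher. Past 2 were MKRN1 (3.32), a ubiquitin ligase that targets TERT, SMN1 (2.55), of the complex that assembles small nuclear particles, RUVBL2 (2.45) and RUVBL1 (2.15), ATPases of telomerase assembly, and EXOSC10 (2.05), a nuclear exosome nuclease. SMN1 has a near-identical copy, SMN2, so its level is uncertain. In gene-rich cells the same 5 genes gave 1.38, 0.23, 0.32, 0.09 and -0.02, and against the nearest Long cells 2.70, 2.63, 0.89, 1.34 and 1.20. MKRN1 was thus past 1 in each of these comparisons, and so was COIL (coilin of Cajal bodies, 1.90 over all cells, 1.73 in gene-rich cells and 1.93 against the nearest Long cells), which is named after its values were seen; the gene-rich values rest on 3 Short cells. In gene-rich cells 5 of the 28 were at least 1 higher and 1 lower, beside the 11.4% and 9.37% of all genes. The lower gene was TOE1 at -2.79, the largest gene-rich difference of the list in size, and it too is named after its values were seen. TOE1 had 0.17 over all cells and 0.35 against the nearest Long cells.

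The box C/D core proteins, the counterparts of the dyskerin complex in the other class of small nucleolar particles, were compared in the same way. FBL (fibrillarin), the methyltransferase, was 2.06 higher in Long than in Short cells, NOP58 1.59, NOP56 0.88 and NHP2L1 0.70, a median of 1.24, beside -0.04 for the 4 dyskerin complex genes. DKC1, the enzyme of the H/ACA class, had -0.25, while GAR1 had 1.91, inside the box C/D range. In gene-rich cells the differences were 0.53 for FBL, 0.23 for NOP58, 1.14 for NOP56 and -0.62 for NHP2L1, beside 0.36 for DKC1. The box C/D median there was 0.38, beside 0.16 for the 4 dyskerin complex genes. These medians were 1.16 and 0.28 in gene-poor cells, and 1.07 and 0.62 against the nearest Long cells. Of the 6 shelterin genes, which coat the telomere, 4 were at least 1 higher in Long cells over all cells (38.9% of all genes). In gene-rich cells 2 were at least 1 higher (TERF1 at 1.31 and TINF2 at 1.39) and 1 lower (POT1 at -1.46). Of all genes 11.4% were as much higher and 9.37% lower there, and these values rest on 3 Short cells. Over all cells TERF1 had 1.92, TINF2 1.49 and POT1 1.15.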

How the data were processed

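Each of 121 single hESCs gave 1 library, grouped by the telomere length class in its label. According to the methods, the authors aligned single-end reads of 50 bases against hg19 by TopHat, counted RefGene genes by HTSeq and used a size factor function, and the submitters' processing notes name TopHat2 and RSEM. The authors deposited 1 table of TPM values with 2 decimals. It was read here up to ZFR, as 25610 complete genes that summed to 979828 to 997050 per cell. A further 1 row was read only in part and left out, and genes after ZFR were not analysed here. TPM keeps no depth. T/R ratios of single cells were not used here.

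Levels are log2(TPM + 1), which understates changes of low genes, and detection is TPM above 1 with exact Clopper-Pearson 95% intervals. Each telomere group counts as 1 sample, because nothing says that the cells came from separate cultures, so no test was run. Differences of at least 1 on the log2 scale were counted among 13439 genes averaging TPM 1 or more, and likeness among genes averaging TPM 10 or more. Named are the 10 members, pathway genes past 2 or with a role beside a member's, and the 5 genes most like TERT and most like the dyskerin complex mean. COIL, TOE1, TERF1, TINF2 and POT1 fall outside this rule and were named with their values seen. The members, lists and the border of 8000 detected genes were chosen with earlier results of these data known. The calculations were tested on simulated data, with differences planted only in genes of high mean level. Low genes such as TERT, NAF1 and WRAP53 were not covered by that test. Positions are from a GENCODE annotation of GRCh37 and promoters from RefSeq. Tables were read with pandas 2.3.3 in Python 3.11.15, intervals came from scipy 1.17.1, other sums from numpy 2.4.6 and figures from matplotlib 3.10.9.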

Additional observations from a re-analysis of the deposited data

How the results depend on the processing

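Alternatives were pseudocounts of 0.1 and 10, medians in place of means, gene-rich or gene-poor cells, cells with at least 4000 detected genes, median ratio scaling (over 602 genes), rescaling without 2030 ribosomal protein and MIR genes, filters, detection above TPM 0 or 10 and, added after the data had been seen, the 3 nearest Long cells, each Short cell left out and the 2 cells farthest from the median core score left out. Shifts were read against limits of 0.5 for differences, 10 percentage points for detection, 0.1 for correlations and 1.5 times for counts, since cells are not replicates. The count of 5 members at least 1 higher in Long than in Short cells was 2 at a pseudocount of 10, 0 in gene-rich cells, 3 in gene-poor cells and 3 against the nearest Long cells, and stayed at 5 without any 1 Short cell. The median of 1.01 over the members became 0.21 in gene-rich cells and was 0.81 to 1.23 without 1 Short cell. The median correlation of 0.38 among DKC1, NOP10, NHP2 and GAR1 was 0.090 in all cells and 0.15 in gene-poor cells. Differences past 1 that changed sign in gene-rich cells were NAF1 at -0.52 (Long minus Short), GAR1 at -0.37 and NAF1 at -0.15 (both Medium minus Short); the cause was not tested, and the gene-rich values rest on 3 Short cells. Under a pseudocount of 10 the share of all genes at least 1 higher in Long cells was 10.7%, under 0.1 it was 60.0%, with no filter on mean TPM 24.8% and after median ratio scaling 29.1%, beside 38.9%. Of 240 Long minus Short values of single members, 40 moved past the limit, NAF1 in gene-rich cells included. Of 120 detection values of single members by group, 31 moved past the limit, such as HAT1 in Short cells (66.7%, and 86.7% above TPM 0) and TERT in Long cells (11.1%, and 29.6% above TPM 0); the median of 96% lies near its upper end and shows little of this. The unknown depth per cell limits all values near 0. No paired analysis was possible because replicate numbers only name single cells and no test was run.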
